A study of Curcuma longa with 2 samples.

Results

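The plant miRNAs miR162 and miR168 were described in the small RNA of turmeric (Curcuma longa) nanoparticles, together with a predicted sequence, PC-3p-14436_103, that the deposited table places in hairpins also listed for miR168. Members were the entries whose name holds miR162 or miR168, from any species, plus that predicted entry. They came to 15 lines of the table and 10 distinct sequences, of 186 distinct sequences in all, 167 of which had reads. miR162 had 2 of these sequences, miR168 had 7, and the predicted entry was 1 sequence. All 10 had reads in at least 1 library.

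The study holds 2 libraries of 1 group, called library 1 and library 2 here, both labelled turmeric nanoparticle with turmeric root as the source and with no treatment, control or second tissue. The labels give no cultivar or growth condition, and they do not say whether 1 or 2 preparations were used. The spread between the libraries may thus be technical only, and RNA carried inside the particles is not distinguished from RNA that came along with them. The listed reads came to 96386 in library 1 and 72196 in library 2, which cover the miRNA list alone, and the full sequencing depth is unknown. Shares below are percent of these listed reads, after adding up the lines that carry the same sequence.

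Both families are known for acting on the machinery that makes and uses plant miRNAs. In Arabidopsis, DCL1 is the Dicer-type enzyme that cuts miRNAs out of their hairpin precursors, and miR162 directs cleavage of the DCL1 mRNA. AGO1 is the Argonaute protein that carries most plant miRNAs and prefers those beginning with U, and miR168 directs cleavage of the AGO1 mRNA. Each family therefore forms a feedback loop on the pathway that produced it. A hairpin is cut into a duplex of a 5′ arm and a 3′ arm strand with short 3′ overhangs, and usually 1 strand is kept while its partner is degraded.

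The sequences of miR162 are shown first because the family rests almost wholly on 1 of them. They are written 5′ to 3′ as the table gives them, with T for U, and capitals mark the seed, bases 2 to 8.
miR162, 3′ arm, leading: tCGATAAAcctctgcatccgg
miR162, 5′ arm: tGGGCGCAgcggtttatcgatc

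The miR168 sequences are shown because they fall into a 5′ group, a 3′ group and an entry that lies elsewhere. The 3 leading 5′ forms differ only in their last bases and so share 1 seed, and the shifted 5′ form and the 3′ forms each have another.
miR168, 5′ arm, leading: tCGCTTGGtgcaggtcgggaa
miR168, 5′ arm, 22 nt: tCGCTTGGtgcaggtcgggaac
miR168, 5′ arm, 20 nt: tCGCTTGGtgcaggtcggga
miR168, 5′ arm, shifted: tGGTGCAGgtcgggaaccgat
miR168, 3′ arm: cCCGCCTTgcaccaactgaat
miR168, 3′ arm, tomato form: cCTGCCTTgcatcaactgaat
PC-3p-14436_103, 3′ arm: cGGTTCCCcacttgcatcaag
miR168 name, in a hairpin shared with miR2916: cGGTGGATgttgctctta

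The leading miR162 sequence is the strand that acts on DCL1 in other plants. It had 1496 reads in library 1 and 1355 in library 2, or 1.55% and 1.88% of the listed reads, with exact Clopper-Pearson 95% intervals of 1.48% to 1.63% and 1.78% to 1.98%. The intervals do not overlap, so the difference exceeds counting error if reads are taken as independent. Here and below, intervals take in this counting error alone. PCR copies were not told apart by molecular identifiers, so the error for molecules may be larger.

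This 21-nt sequence is listed under 2 rice names. Relative to the registered osa-miR162a it carries A20G, and relative to osa-miR162b G8A and A20G, counted from 1 at the 5′ end of the registered sequence. It was identical to none of the registered mature sequences quoted in the table. The shared change lies at the base before the 3′ end, outside the seed, while G8A lies at the last base of the seed.

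The 5′ arm partner of miR162, 22 nt long, was read 12 times in library 1 and 8 times in library 2. It is named for maize zma-miR162-5p, from which it differs by 1 extra base at the 5′ end and T9C. The 3′ arm thus held 99.3% ± 0.15 of the miR162 reads and the 5′ arm 0.69% ± 0.15 (SD, n = 2). Per read of the 5′ arm there were 125 reads of the 3′ arm in library 1 and 169 in library 2, and with so few reads on the 5′ arm this ratio is imprecise. The family is nearly a single strand in both libraries.

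The table places the leading miR162 sequence in 2 hairpins of the genome, which are printed with the arms listed for each in capitals. The contig names and positions are those of the table, which names no genome build, and no gene annotation was matched to them. The first lies at WXZB01000756.1:11823481-11823623 and the second at WXZB01007556.1:94373293-94373400, both on the plus strand.
miR162 hairpin 1: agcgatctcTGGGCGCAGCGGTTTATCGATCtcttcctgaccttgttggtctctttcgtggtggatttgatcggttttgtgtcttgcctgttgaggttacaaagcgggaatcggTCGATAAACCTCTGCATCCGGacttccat
miR162 hairpin 2: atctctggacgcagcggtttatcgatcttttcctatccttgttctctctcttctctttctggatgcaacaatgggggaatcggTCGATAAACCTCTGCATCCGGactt

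The 3′ arm is identical in both hairpins, and its 2 lines carry equal values, 748 reads each in library 1 and 677.5 each in library 2. The reads therefore cannot be assigned to either hairpin. The 5′ arms differ: at the matching place hairpin 2 has tggacgcagcggtttatcgatc, which is G4A relative to the listed 5′ sequence. The listed 5′ sequence was found in hairpin 1 alone, so its 12 and 8 reads are the only miR162 reads that this table ties to a single hairpin. No entry used here carries the hairpin 2 form.

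In the structure the authors deposited for hairpin 1, both miR162 arms face each other with 17 bases of the 5′ strand paired to the 3′ strand. The 5′ strand ends with a 3′ overhang of 2 bases and the 3′ strand with an overhang of 1 base. The 5′ strand starts 1 base before the registered maize form at that second end. The deposited free energy was -56.5 kcal/mol for hairpin 1, 143 bases long, and -45.0 kcal/mol for hairpin 2, 108 bases long.

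The leading miR168 sequence, the 5′ arm strand that acts on AGO1 in other plants, had 646 reads in library 1 and 510 in library 2. These were 0.67% and 0.71% of the listed reads, with exact Clopper-Pearson 95% intervals of 0.62% to 0.72% and 0.65% to 0.77%, which overlap. It held 84.2% ± 0.82 (SD, n = 2) of the reads named miR168. The first name listed for it is rice osa-miR168a-5p, from which it differs by A14G and C21A. It is identical to the registered asparagus form aof-miR168a, another monocot entry quoted in the table.

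The other 5′ forms at this place were minor. The 22-nt form with an added C had 21 reads in library 1 and 14 in library 2, and the 20-nt form, without the last A, had 13 and 10.5. Together the 3 nested forms held 88.4% ± 0.59 (SD, n = 2) of the reads named miR168. A read of the shortest form is contained in the longer ones, and per the table's legend an entry stands for a cluster of reads, so reads may be shared between them. All 3 share the first base T and the same seed.

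On the 3′ arm, the sequence named for rice osa-miR168a-3p had 34 reads in library 1 and 29 in library 2. It is 3 bases shorter at the 5′ end than the rice form and carries G19C, and it is identical to the registered vca-miR168b-3p. A second 3′ sequence, identical to the tomato form sly-miR168a-3p, had 14 reads in library 1, while library 2 listed it at 0. It differs from the first by C3T and C12T.

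The tomato form was not found in any hairpin of the table. Its 2 lines belong to hairpins that read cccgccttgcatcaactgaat at this place, which is T3C relative to the listed sequence. Sequences that differ from the hairpin of their own line were common in the table, at 78 of 251 lines with a hairpin. For this form the match to the listed hairpins is therefore close and not exact. The genome outside these hairpins was not searched.

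PC-3p-14436_103 has no registered name and lies on the 3′ arm of miR168 hairpins 5 and 6. It had 69 reads in library 1 and 70 in library 2, or 0.072% and 0.097% of the listed reads, with exact Clopper-Pearson 95% intervals of 0.056% to 0.091% and 0.076% to 0.12%, which overlap. That was 2.03 and 2.41 times the reads of the leading named 3′ sequence. With it, 15.1% ± 0.65 of the reads of the entries listed for miR168 hairpins were 3′ arm reads, against 5.85% ± 1.03 without it (SD, n = 2 each). Both shares count the leading 5′ sequence on its 2 lines alone, although 7 hairpins hold it. They also include the tomato form, which no listed hairpin contains. Leaving the tomato form out gave 13.1% in library 1 and 15.6% in library 2 with PC-3p-14436_103. Without either, the share was 4.75% in library 1 and 5.12% in library 2, where with the tomato form it was 6.57% and 5.12%, so the order of the libraries turned round. The most abundant 3′ sequence of the miR168 hairpins was thus the one that carries no miR168 name, in both libraries.

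The hairpins that carry these sequences are printed where the arms differ most. miR168 hairpin 1 lies at WXZB01013055.1:3977-4072 and hairpin 5 at WXZB01007556.1:12245571-12245716, both on the plus strand. Hairpin 6 lies on the minus strand of contig WXZB01110970.1, where the table gives it 2 positions, 383 to 544 on the line of the 5′ entry and 215 to 376 on that of PC-3p-14436_103. The hairpin sequence is the same on both lines. In each pairing of the start of one line with the end of the other the sum is 759, as when positions are counted from opposite ends of the contig, so its place is uncertain.
miR168 hairpin 1: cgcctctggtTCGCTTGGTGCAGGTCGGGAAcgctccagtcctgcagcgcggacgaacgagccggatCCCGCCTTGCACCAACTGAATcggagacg
miR168 hairpin 5: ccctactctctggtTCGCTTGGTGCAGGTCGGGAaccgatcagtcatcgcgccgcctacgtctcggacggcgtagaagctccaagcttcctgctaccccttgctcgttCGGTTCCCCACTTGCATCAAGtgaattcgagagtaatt
miR168 hairpin 6: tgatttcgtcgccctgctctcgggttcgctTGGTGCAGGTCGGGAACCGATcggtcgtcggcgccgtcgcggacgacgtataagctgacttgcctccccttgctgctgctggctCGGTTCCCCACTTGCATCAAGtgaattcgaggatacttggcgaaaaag

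In hairpin 1 the leading 5′ sequence and the named 3′ sequence formed a duplex with 3′ overhangs of 2 bases at both ends in the deposited structure, with 16 bases of the 5′ strand paired to the 3′ strand. This is the end geometry known for cuts by Dicer-type enzymes. PC-3p-14436_103 did not sit opposite the leading 5′ sequence in that way. In hairpins 5 and 6 its 3′ end fell 3 bases short of the base facing the 5′ end of the leading sequence, and the 3′ end of the leading sequence fell 3 bases short at the other end.

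The shifted 5′ entry did match it. This sequence starts 5 bases inside the leading 5′ sequence, shares 16 bases with it and was the lowest of all members in library 1, with 2.5 reads, against 3 reads in library 2. With PC-3p-14436_103 it formed a duplex of 18 paired bases with 2-base 3′ overhangs at both ends, in hairpin 5 and in hairpin 6. The 3′ strand of this duplex thus had 69 and 70 reads and the 5′ strand 2.5 and 3. Both hairpins hold both strands, but the 3′ value sums 2 lines and the 5′ value is that of 1 line. The 5′ strand may therefore be undercounted beside the 3′ strand. Its name, gma-MIR168b-p5, marks a stretch of a soybean hairpin that is not itself a registered mature sequence. It differs from that hairpin by G20A.

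Over the whole table, 17 pairs of a 5′ and a 3′ sequence with reads were listed for the same hairpin. Of these, 5 had 2-base overhangs at both ends, made up of 2 of the 4 pairs in hairpins of miR162 and miR168 and 3 of the 13 pairs in other hairpins. These counts are small, and the overhangs come from structures predicted by the authors, not from the reads.

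**Figure D1:**
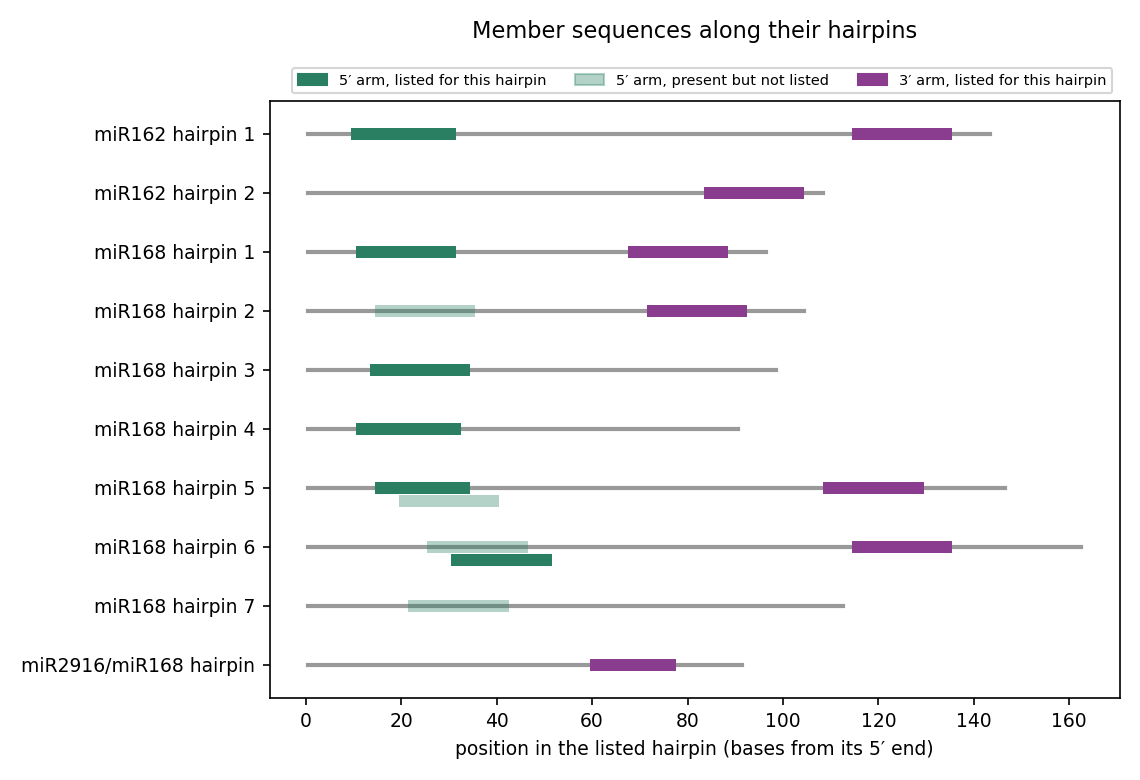
Position of each member sequence in its listed hairpin, in bases from the hairpin's 5′ end; grey lines are hairpins, green blocks 5′ arm sequences, purple blocks 3′ arm sequences, and pale blocks sequences present in a hairpin without being listed for it. The lower blocks in miR168 hairpins 5 and 6 are the shifted 5′ form, 5 bases inside the leading form. The 22-nt and 20-nt forms are drawn only where they are listed (hairpins 4 and 5). There they stand in place of the leading form, which is not drawn although both hairpins hold it. The tomato form is not drawn because no listed hairpin contains it.

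Which of the miR168 hairpins gave rise to the 5′ reads cannot be read from the table. The leading 5′ sequence is listed on 2 lines but was found in 7 of the 7 miR168 hairpins, as were the 20-nt and 22-nt forms, each listed on 1 line. How reads were divided over hairpins without a line is not known, so sums over the listed lines may undercount these forms. Of the hairpins not printed, hairpin 2 lies at WXZB01334153.1:22-125, hairpin 3 at WXZB01075556.1:337496106-337496203 and hairpin 4 at WXZB01004531.1:5257-5346, all on the plus strand. Hairpin 7 lies at WXZB01176887.1:446-557 on the minus strand, and hairpins 3 and 7 are those listed for the tomato form. The 3′ sequences were more specific. The named one was found in 2 hairpins and PC-3p-14436_103 in 2 others. The deposited free energies of the 7 hairpins ran from -83.4 kcal/mol in the longest to -46.4 kcal/mol in the shortest, which has 90 bases, with a GC content of 56.8% to 66.3%.

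The free energy index MFEI, by which the authors scale a hairpin's free energy to its length and GC content, was 0.8 or 0.9 for the 9 hairpins of miR162 and miR168 that are not shared with miR2916, against a median of 0.8 over all 224 distinct hairpins. It does not set these hairpins apart.

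The remaining entry named miR168 goes against its name. It is 18 nt long and is listed as a stretch of the artichoke hairpin cca-MIR168a, not a registered mature sequence, with T7A and G18A. Its reads numbered 42 in library 1 and 35 in library 2. Its hairpin, of 91 bases with an MFEI of 0.6, is listed under both miR2916, which has been proposed to derive from ribosomal RNA, and miR168. A run of 11 bases of it is also found in the miR2916 sequence with 6640 and 5246 reads. None of the 5′ forms of miR168 was found in this hairpin. Without this entry miR168 held 0.77% ± 0.019 of the listed reads, against 0.82% ± 0.022 with it (SD, n = 2 each).

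**Figure D2:**
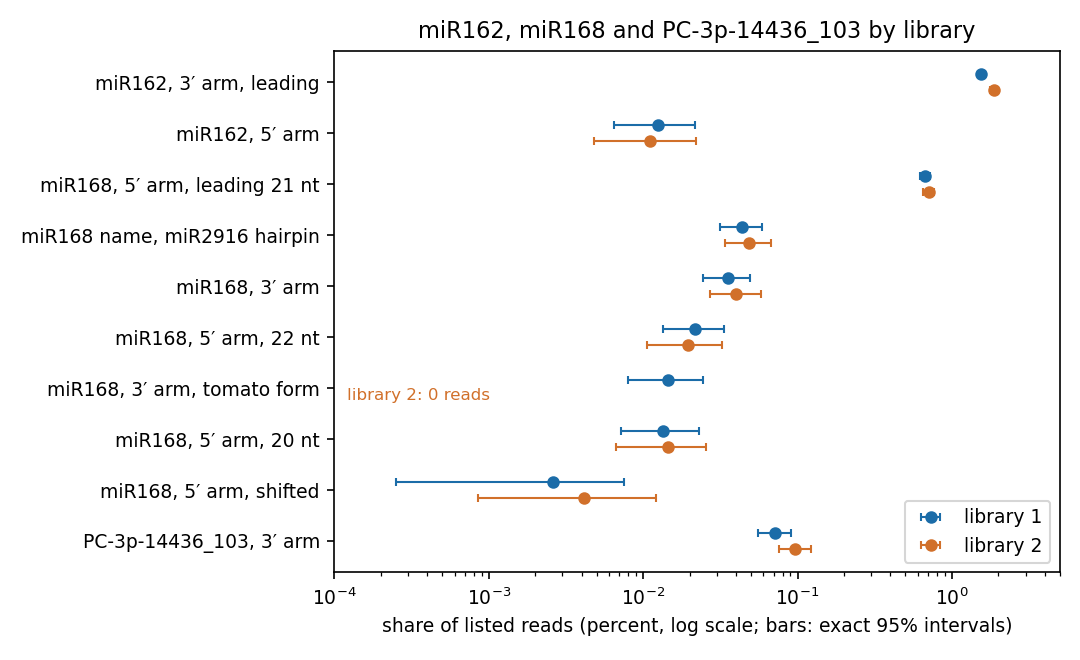
Share of listed reads of each member sequence in library 1 (blue) and library 2 (orange), in percent on a log scale, with exact Clopper-Pearson 95% intervals as bars. The leading miR162 sequence lies at 1.55% and 1.88% and the leading miR168 sequence at 0.67% and 0.71%; the tomato form is at 0 reads in library 2.

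Set side by side within a library, the reads summed over the listed lines were more for miR162 than for miR168. miR162 had 1508 reads against 772.5 for miR168 in library 1, and 1363 against 601.5 in library 2, a ratio of 1.95 and 2.27. The mean log2 ratio of 1.07 exceeded its SD of 0.15 (n = 2). Between the leading sequences alone the ratio was 2.32 in library 1 and 2.66 in library 2. The leading miR162 sequence was listed for both hairpins that hold it, the leading miR168 sequence on 2 lines although 7 hairpins hold it. If reads were also divided over hairpins without a line, miR168 would be undercounted and the order could change, which was not tested. No p-value was attached, since with 2 libraries a two-sided exact sign-flip permutation test cannot go below 0.5. Library preparation can favour some sequences over others, so a ratio of reads is not a ratio of molecules.

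Among the 43 families with reads, miR162 ranked 8th and miR168 11th by mean share. The families most like miR162 in level were miR396, with 1.55 times its reads in library 1 and 1.36 times in library 2, and miR528, with 0.66 and 0.56 times. The next neighbours were miR165/miR166 at 3.02 and 2.50 times and miR170/miR171 at 0.56 and 0.48 times the miR162 reads. miR168 lay closest to miR170/miR171, which had 1.08 and 1.09 times its reads, then miR164 at 0.79 times in both libraries, miR528 at 1.30 and 1.27 times and miR169 at 0.83 and 0.72 times. Each of these neighbours stood on the same side in both libraries, with a mean log2 ratio larger than its SD.

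**Figure D3:**
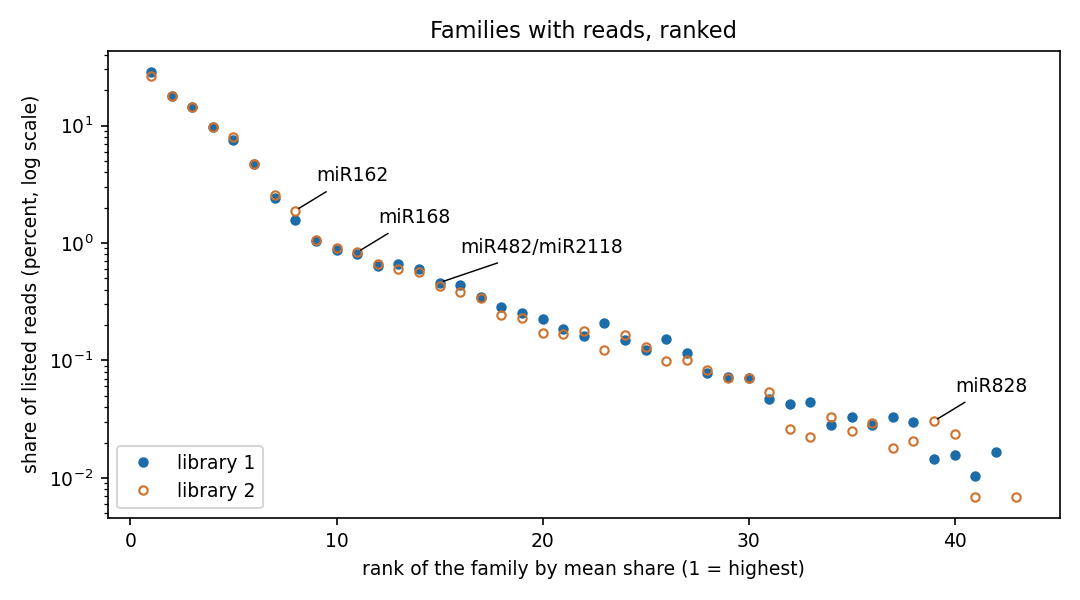
Share of listed reads of the 43 families with reads, in percent on a log scale, against their rank by mean share, for library 1 (filled blue) and library 2 (open orange); values of 0 are not drawn. miR162 stands at rank 8 and miR168 at rank 11, with the other small RNA pathway families that had reads, miR482/miR2118 and miR828, at ranks 15 and 39.

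Of the 10 families in a list of miRNAs that act on small RNA pathways, 4 had reads. miR482/miR2118, known as a trigger of phased small RNAs, had 443 reads in library 1 and 310.5 in library 2. miR828, which acts on TAS4 in Arabidopsis, had 14 and 22. No reads were listed, in the entries used here, for miR403, which acts on AGO2, for miR838, which lies in an intron of DCL1 in Arabidopsis, or for miR1515, which acts on DCL2 in soybean. The same held for miR390, miR173 and miR2275, which act on TAS transcripts or other sources of phased small RNAs. miR162 and miR168 were the families of this list with the most reads, but the list was chosen with earlier results of these data known. Whether turmeric carries the families without reads was not examined, so their lack of reads is not a result about the particles.

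Strand choice was compared over the 17 families with reads on both arms. These include miR2916, proposed to derive from ribosomal RNA, at rank 14 with 60.2% on its leading arm. The median and the ranks thus depend on which families are taken in. miR162 ranked 3rd by the share of its leading arm, after miR165/miR166 and miR535, and the median family had 88.9% on its leading arm. miR168 was the median family, at 88.3% in library 1 and 89.4% in library 2 with the entry of the miR2916 hairpin counted on the 3′ arm. Its place depends on that entry. Without it, the 5′ arm held 93.4% and 94.9% of miR168 reads and miR168 ranked 7th of the 17. With PC-3p-14436_103 then counted on the 3′ arm, the 5′ arm held 85.4% and 84.4% and miR168 ranked 10th. The leading arm was 3′ for miR162 and 5′ for miR168.

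Length and first base were more uniform among the members than in the table as a whole. Sequences of 21 nt held 96.5% ± 0.30 of the members' reads, against 58.6% ± 0.71 of all listed reads (SD, n = 2 each). A first T, read as U in RNA, was carried by 93.3% ± 0.13 of the members' reads, against 76.9% ± 1.19 of all listed reads (SD, n = 2 each). These shares follow from the leading miR162 and miR168 sequences, which are both 21 nt with a first T. All 3′ sequences of miR168 and PC-3p-14436_103 began with C, and the 5′ partner of miR162 with T.

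The libraries were compared per sequence with a two-sided exact binomial test, adjusted by Benjamini-Hochberg over all 153 sequences with at least 10 reads in total. Of these, 20 were called at 0.05, or 13.1%, with 6.54% called as higher in library 2 and 6.54% as higher in library 1. Of the 10 members 9 could be tested, the shifted 5′ form having too few reads, and 2 of the 9 were called, 1 in each direction. With so few members this count is not a result about them. The test compares these 2 libraries by their shares of listed reads, so higher and lower hold on that scale alone. It says nothing of other preparations.

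As a share of listed reads, the leading miR162 sequence was 1.21-fold higher in library 2 (95% interval 1.12 to 1.30, exact binomial test, adjusted p = 9.38e-06). As a family miR162 differed 1.21-fold, while the other 14 of the 15 leading families differed by 0.90-fold to 1.07-fold. Some families below this cut, with fewer reads, lay outside that range in either direction. The family at rank 20 stood at 0.76-fold and miR828, at rank 39, at 2.10-fold. Among the 23 sequences with 1000 reads or more over both libraries, the ratio of the leading miR162 sequence was the second highest, and 9 of the 23 were called. The tomato form of the miR168 3′ arm, with 14 reads in library 1 and 0 in library 2, was called in the other direction (exact binomial test, adjusted p = 0.00586). That call rests on summing the 2 lines of the tomato form, which list 7 reads each in library 1. With a single line per sequence it has under 10 reads in all and was not tested, nor was it with at least 10 reads required in each library. In both settings the leading miR162 sequence was the 1 member called.

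The leading miR168 sequence had a library 2 to library 1 ratio of 1.05 (95% interval 0.94 to 1.19) and did not pass the test (exact binomial test, adjusted p = 0.789). PC-3p-14436_103 had a ratio of 1.35 (95% interval 0.96 to 1.92) and did not pass it either (exact binomial test, adjusted p = 0.347). The ratios of the other 5 tested members ran from 0.89 to 1.14, with intervals that include 1. Over the 8 tested members with reads in both libraries the median difference in either direction was 1.12-fold, against 1.15-fold over all 148 such sequences.

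**Figure D4:**
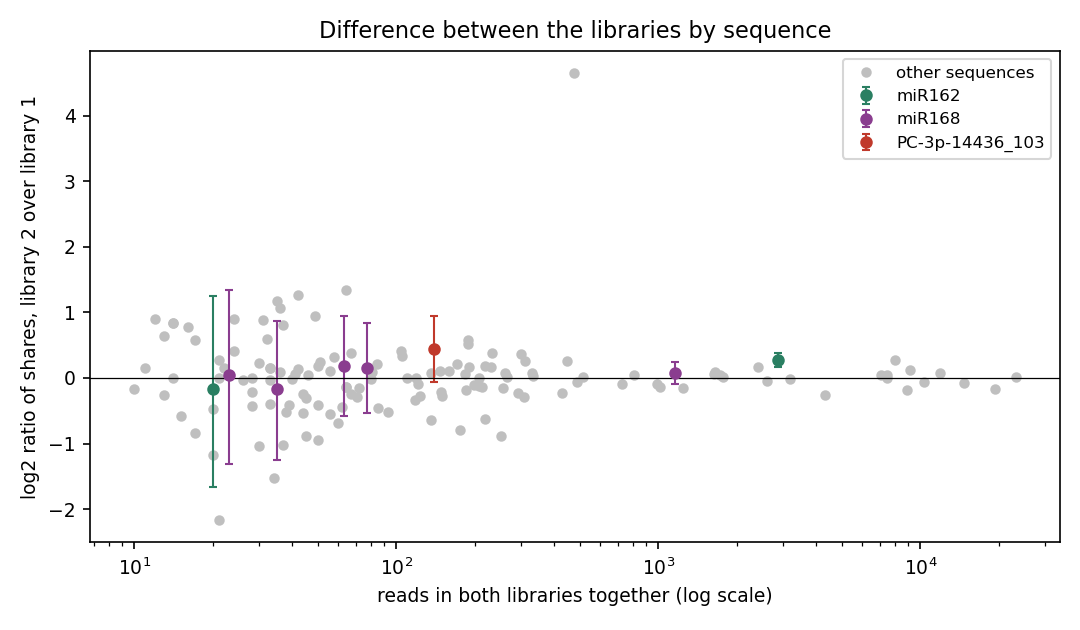
Log2 ratio of the share in library 2 over library 1 for each tested sequence with reads in both libraries, against its reads in both libraries together (log scale); grey points are other sequences and bars are exact 95% intervals. The leading miR162 sequence, with a ratio of 1.21, lies above 0 with its whole interval, and the intervals of the other members drawn include 0.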

How the data were processed

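Per the labels' protocols, total RNA was isolated with a miRNeasy kit, made into TruSeq small RNA libraries and sequenced on an Illumina HiSeq instrument. CASAVA 1.8.4 and cutadapt 1.10 appear in the submitters' processing notes, with no step assigned to them. Per the file headers, hairpins came from miRBase matches for selected species, further mapped to a genome, or from genomic sequence that may fold. No source used here names the aligner, miRBase release or build. The deposited table holds expected counts of reads per line, many fractional. The authors' normalized signal is the raw column times 0.508 in library 1 and 0.923 in library 2, so shares are equal on both scales. Ratios of library 2 to library 1 are not. These factors do not make the listed totals equal, and every such ratio of the signal itself would be higher than the ratio of shares given here. The MFEI score, per the file headers, and the free energies were used as deposited.

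Of 278 lines, 12 hold no entry and are not analysed here, leaving 266. The 2 columns of no sample here were not used. Lines with the same sequence were summed, because their values are equal and 1 member sequence of 10 stayed fractional in each library after summing (tolerance 1e-06). Values were rounded for exact tests (SciPy 1.17.1, statsmodels 0.14.6), and the test was tested on simulated data. Overhangs were read from the deposited structures by following the paired bases at each end.

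All member sequences are named. Other families named are the 2 above and 2 below miR162 and miR168 in mean share and those of a list of small RNA pathway families. Families with reads on both arms, miR165/miR166 and miR535 among them, were named after their values were seen. Members and lists were chosen with earlier results of these data known.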

Additional observations from a re-analysis of the deposited data

How the results depend on the processing

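Values are means over both libraries. With a single line per sequence in place of the sum, miR162 held 1.29%, miR168 0.67%, both 1.95% and PC-3p-14436_103 0.062% of the listed reads, the leading sequences 98.6% of miR162 and 76.4% of miR168 reads, and 12 sequences and 1 member differed between the libraries, the tomato form being then not tested. Among registered names miR168 held 0.87%. Without rRNA- or tRNA-like entries miR162 held 2.11%, miR168 1.00%, both 3.12% and PC-3p-14436_103 0.10%, and without the most abundant sequence miR162 2.00%, miR168 0.95% and both 2.95%. These denominators are smaller by construction. With at least 10 reads in each library the leading sequences held 100% of miR162 and 85.3% of miR168 reads, and 1 member differed, the tomato form again not being tested. Without loosely matched members miR168 held 0.77% and its leading sequence 89.6%. Counting only members identical to a registered sequence quoted in the table left miR162 at 0%, miR168 and both at 0.73%, and turned the ratio of miR162 to miR168 to 0, because no miR162 sequence is identical to one. Without adjustment, 32 sequences had a p below 0.05.

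Chosen after seeing the data, leaving out the miR168 entry of the miR2916 hairpin gave miR168 0.77% and its leading sequence 89.2%. Counting PC-3p-14436_103 under miR168 gave 0.90%, 76.4% on the leading sequence and 15.1% on the 3′ arm. Leaving out the tomato form as well gave 14.3% on the 3′ arm. In the other settings that kept both libraries and gave a ratio of miR162 to miR168, it lay between 1.91 and 2.25. None of these settings covers hairpins that hold a sequence without a line for it. Leaving out either library gave 1.56% to 1.89% for miR162, 0.80% to 0.83% for miR168, 2.37% to 2.72% for both, 0.072% to 0.097% for PC-3p-14436_103, ratios of 1.95 to 2.27, leading shares of 99.2% to 99.4% for miR162 and 83.6% to 84.8% for miR168, and 5.12% to 6.57% on the 3′ arm. Of 2 values, either lies within 1 SD of their mean by construction, so these ranges do not bear on stability. No paired analysis was possible because the libraries form a single group.

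The leading miR162 sequence passed the test in all settings computed, with the largest adjusted p, 0.0217, for a single line per sequence (1.18-fold, exact binomial test). Low counts limit the 5′ arm of miR162, the shifted 5′ form and the tomato form.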
